A study of Mus musculus with 22 samples.

Results

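The genes described here are the mouse keratins whose symbol is Krt followed by digits alone, 50 of the 24467 genes in a table of CUT&RUN reads counted in a window of 5000 bp centred on each RefSeq transcription start site. They comprised the 4 simple epithelial keratins (Krt7, Krt8, Krt18 and Krt19) and 46 others; 4 keratins with a letter at the end of their symbol (Krt6a, Krt6b, Krt33a and Krt33b) fell outside the rule and entered only as neighbours. CUT&RUN cuts chromatin beside a bound antibody and sequences the released fragments. Neural progenitor cells (NPC) were set against the mouse embryonic stem cells (ESC) they were made from. The ESC were of the C57BL/6 strain and kept in N2B27 medium with LIF at 100 U/mL, CHIR99021 at 3 µM and PD0325901 at 1 µM, and their conversion to NPC used 72 h of bFGF (10 ng/mL) followed by 48 h of the Hedgehog pathway agonist SAG (500 nM). Both cell types shared a genotype given as untagged with Tir1, the plant F-box protein used for auxin-induced degradation, and all samples were labelled untreated. In each cell type there were 2 libraries each for H3K27me3, H3K4me3, SUZ12, JARID2 and MTF2, and 1 IgG control library.

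Keratins are the intermediate filament proteins of epithelial cells, and each filament is built from pairs of a type I and a type II chain. Krt8 and Krt18 pair in simple, single-layered epithelia and are among the first keratins made in the embryo, while Krt5 and Krt14 mark the basal layer of stratified epidermis, Krt1 and Krt10 its upper layers, and other members the hair shaft and the sheaths of the hair follicle. Polycomb repressive complex 2 (PRC2), whose core subunit is SUZ12, places H3K27me3 on silent developmental genes. Its 2 main forms carry MTF2 (PRC2.1) or JARID2 (PRC2.2), and H3K4me3 marks active and poised promoters.

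The keratins lay in 2 clusters of 25 genes (coordinates in mm10). The chromosome 11 cluster reached from Krt222 to Krt42 (chr11:99241568-100272371) and held type I genes, including Krt19. The chromosome 15 cluster reached from Krt80 to Krt18 (chr15:101367626-102030715) and held the type II genes and Krt18, a type I gene whose start lies 23.9 kb from that of its partner Krt8. RefSeq promoters (GRCm38.p6) were at hand for 34 of the 50 keratins, 3 simple and 31 others. CpG content is a feature of many PRC2-bound promoters, so the 250 bases before the start of 5 genes are shown 5′ to 3′ on the coding strand, with each CpG in capitals. The first 3 are simple keratins, Krt7 (chr15:101412153-101412402, plus strand), Krt18 (chr15:102027966-102028215, plus strand) and Krt8 (chr15:102004343-102004592, minus strand), and the others are the epidermal Krt5 (chr15:101712906-101713155, minus strand) and Krt10 (chr11:99389365-99389614, minus strand).
Krt7: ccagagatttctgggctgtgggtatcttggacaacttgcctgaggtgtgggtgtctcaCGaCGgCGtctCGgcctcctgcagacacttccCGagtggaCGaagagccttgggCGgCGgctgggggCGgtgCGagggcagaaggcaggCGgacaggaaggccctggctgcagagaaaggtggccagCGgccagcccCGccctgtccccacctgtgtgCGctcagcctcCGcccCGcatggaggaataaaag
Krt18: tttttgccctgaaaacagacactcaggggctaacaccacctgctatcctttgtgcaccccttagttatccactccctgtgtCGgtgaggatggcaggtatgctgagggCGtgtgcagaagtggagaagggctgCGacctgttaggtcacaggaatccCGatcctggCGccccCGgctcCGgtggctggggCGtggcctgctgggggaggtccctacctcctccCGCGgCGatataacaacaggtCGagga
Krt8: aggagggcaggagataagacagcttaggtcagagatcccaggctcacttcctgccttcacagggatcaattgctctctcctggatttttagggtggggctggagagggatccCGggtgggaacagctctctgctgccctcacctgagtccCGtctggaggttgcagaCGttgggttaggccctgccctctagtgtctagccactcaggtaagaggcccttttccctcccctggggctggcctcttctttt
Krt5: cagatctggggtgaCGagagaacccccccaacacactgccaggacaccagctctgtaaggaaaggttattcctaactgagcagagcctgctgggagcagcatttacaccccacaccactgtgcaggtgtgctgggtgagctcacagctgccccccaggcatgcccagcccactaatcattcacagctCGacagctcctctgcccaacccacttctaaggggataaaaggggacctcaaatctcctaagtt
Krt10: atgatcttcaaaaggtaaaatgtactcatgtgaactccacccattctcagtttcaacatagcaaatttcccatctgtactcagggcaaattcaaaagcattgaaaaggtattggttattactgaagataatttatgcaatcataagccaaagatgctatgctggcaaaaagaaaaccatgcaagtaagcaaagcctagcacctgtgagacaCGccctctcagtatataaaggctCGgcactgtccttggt
These stretches held 16 CpGs for Krt7, 12 for Krt18, 3 for Krt8, and 2 each for Krt5 and Krt10. Over 300 bases (250 before and 50 after the start), the ratio of observed to expected CpGs was 0.641 for Krt7, 0.603 for Krt18 and 0.238 for Krt8. Its median was 0.26 over the 31 other keratins (range 0.092 to 0.782), against 0.384 over all 32841 promoters of that table. In CpG content Krt8 lay near the epidermal genes, below Krt18 and Krt7. The letters TATAAA, searched on the coding strand of the 300 bases, were found in 1 of the 3 simple promoters (Krt8) and in 15 of the 31 others (48.4%), against 8.32% of all promoters. On either strand the shares were 33.3%, 54.8% and 13.6% in the same order.

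Library totals over the windows ran between 298458 and 8425292 counts, so that 3 counts amounted to between 0.356 and 10.1 counts per 1e6 (CPM). Levels below are CPM of a library's own total, a share of that library's signal, and all windows have the same length. Fold changes are log2 values from edgeR's quasi-likelihood fit to the counts with TMM scaling. Their standard error (SE) was derived as the absolute log2 value over the square root of the test's F statistic. A gene is said to rise or fall where the Benjamini-Hochberg adjusted p over all windows tested was below 0.05. By H3K4me3, 7 of 8 ESC markers fell and 8 of 8 NPC markers rose in NPC (29.2% of all windows fell and 26.7% rose). Of the NPC markers, 6 were above IgG in NPC, where 35.5% of all windows were (32.9% in ESC). No surface ectoderm or trophectoderm marker of 8 was above IgG for H3K4me3 in either cell type. Of these 8, 5 fell in NPC and Gata3 rose (log2 change 0.66). Trp63, a defining regulator of stratified epithelium, had 2.25 CPM of H3K4me3 in NPC and 1.60 CPM in ESC. Of 5 endoderm markers, 2 fell in NPC, while Foxa2 rose (log2 change 1.86) and was above IgG there. The paired SUZ12 libraries of NPC and the paired JARID2 libraries of both cell types agreed to within, or close to, the noise of sampling. Their chi-square for each degree of freedom was 1.025 (p = 0.0035), 0.998 (p = 0.57) and 1.023 (p = 0.00676), under the limit set for summing, so each pair was summed and counted as 1 sample, although 2 of the 3 pairs differed slightly beyond sampling. The 2 H3K27me3 libraries of NPC stood further apart than any other pair (6.67), and the highest 1% of windows held 11.04% of the counts of replicate 1 and 19.6% of replicate 2. The labels do not say whether same-group libraries came from separate cultures, though the series design calls them biological replicates.

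H3K27me3 was called above IgG at a share of keratins near the background in NPC and at most of the family in ESC. It passed (adjusted p below 0.05 and a log2 ratio of at least 1) at 7 of 50 in NPC, where 15.2% of all windows passed, and at 43 of 50 in ESC, where 21.3% of all windows passed. The 7 in NPC were Krt7, Krt18 and Krt19 of the simple class, Krt75 of the hair follicle's companion layer, and the hair keratins Krt82, Krt84 and Krt87. In ESC all 25 keratins of the chromosome 15 cluster passed and 18 of the 25 on chromosome 11. Those that did not pass in ESC were Krt10, Krt13, Krt17, Krt20, Krt35, Krt42 and Krt222. The counts changed with the scaling: with library totals in place of TMM, Krt87 alone passed in NPC and 31 keratins passed in ESC. By mean CPM over a group's libraries, the median simple keratin ranked at the 89.7th percentile of all windows in NPC and the 95.5th in ESC, and the median of the others at the 79.8th in NPC and the 93.3rd in ESC.

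Over IgG, the median log2 ratio of the simple keratins was 1.32 in NPC and 1.96 in ESC. For the other 46 keratins it was 0.19 in NPC and 1.74 in ESC, and over all windows -0.02 in NPC and -0.09 in ESC. With library totals in place of TMM, the simple keratins ran between -0.15 and 0.46 in NPC and between 0.97 and 1.60 in ESC, the median of all 50 was -0.79 in NPC and 1.17 in ESC, and that of all windows -1.02 in NPC and -0.71 in ESC. Krt87 stood highest in NPC, at 3.22 ± 0.50 (SE), and had 2.61 in ESC. The IgG level itself at keratin windows was somewhat above that of other windows, with a median of 56.9 CPM in NPC and 60.3 CPM in ESC, against 41.9 and 40.2 CPM over all windows. Each cell type had 1 IgG library, which was taken to vary like the other libraries. Between the IgG libraries no keratin differed by 2-fold or more, where 3.41% of all windows were higher and 1.54% lower in NPC.

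**Figure D1:**
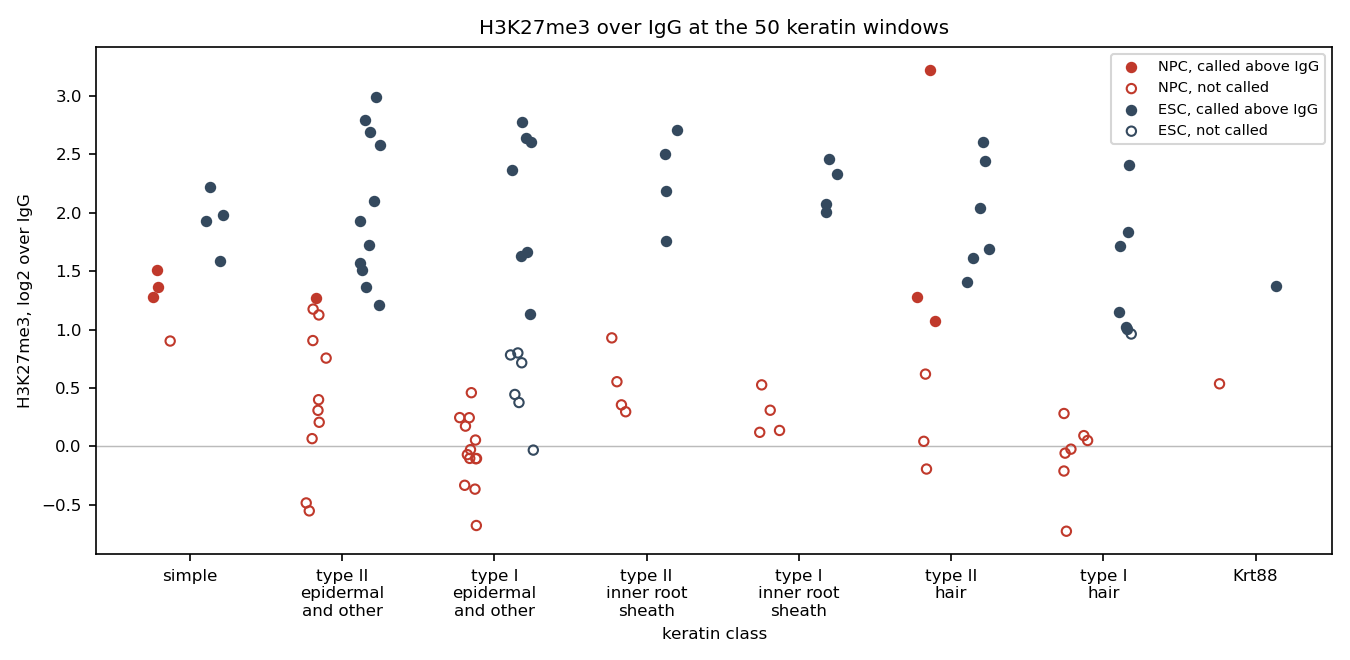
Log2 ratio of H3K27me3 over IgG (vertical axis) at each keratin window by class, NPC left of ESC; filled points were called above IgG, and each point is 1 gene. In NPC 7 points are filled, 3 of them simple keratins, and in ESC 43 are filled.

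Between the cell types, H3K27me3 was lower in NPC at every keratin. Both NPC libraries lay below both ESC libraries at 50 of 50 keratins, a pattern seen at 34.1% of all windows (29.6% had both NPC libraries above), and 45 of 50 passed the test as lower, where 23.5% of all windows fell and 22.9% rose. None rose. The median log2 change of the 50 was -1.85 (range -2.59 to -0.29), against 0.12 over all windows tested. By library, the median keratin had 39.9 and 27.7 CPM in NPC, against 146 and 136 CPM in ESC, while the median of all windows had 26.6 and 14.7 CPM in NPC and 19.7 and 21.6 CPM in ESC. A lower level in all cells and a loss in a share of the cells cannot be told apart in these bulk libraries, and a change common to all windows was not measured: the labels' protocol adds Drosophila spike-in DNA, which was not used here.

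All 4 simple keratins had a smaller decrease than the family's median. Their median log2 change was -0.90, and Krt8 was the single member of the 4 that passed. That median was -0.52 without NPC replicate 1, -1.57 without NPC replicate 2, where all 4 passed, and -0.27 with a minimum count of 30. Krt8 had 56.5 and 54.8 CPM in NPC, against 178 and 165 CPM in ESC (log2 change -1.40 ± 0.56, adjusted p = 0.0299). Its filament partner Krt18 had 65.4 and 70.1 CPM in NPC, against 184 and 179 CPM in ESC (-1.18 ± 0.59, adjusted p = 0.0858). The libraries of each cell type lay close together at both genes and the cell types did not overlap. Krt7, the type II keratin of glandular and ductal epithelia, had 62.1 and 84.7 CPM in NPC, against 151 and 120 CPM in ESC (-0.62 ± 0.54, adjusted p = 0.341). Krt19, a type I keratin with hardly any tail domain, had 89.8 and 94.3 CPM in NPC, against 154 and 131 CPM in ESC (-0.40 ± 0.57, adjusted p = 0.573). Both NPC values again lay below both ESC values, but neither gene passed the test, which does not show that they kept their level. Krt18 passed with library totals (adjusted p = 1.21e-05), in DESeq2 (0.0421), in 1 fit over all libraries (0.00206) and without NPC replicate 1 (0.00159) or 2 (0.00654), so that the difference in call between the partners depends on the setting. The call at Krt8 was lost on non-overlapping windows (adjusted p = 0.0509), without ESC replicate 1 (0.402) and without ESC replicate 2 (0.247). No test compared the simple keratins with the others, and the ranges of the classes overlap.

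Among the other 46 keratins, 44 fell, with a median log2 change of -1.89. Of the keratins of the living epidermis, Krt5 of the basal layer had 11.1 and 22.9 CPM in NPC, against 110.8 and 75.7 CPM in ESC (-2.12 ± 0.37, adjusted p = 3.46e-07). Its partner Krt14 had 48.8 and 36.3 CPM in NPC, against 241 and 205 CPM in ESC (-2.22 ± 0.63, adjusted p = 0.00188). At both genes the NPC libraries lay far below the ESC libraries. For the keratins of the upper layers, the change was -1.93 ± 0.61 at Krt1 (adjusted p = 0.00552) and -1.01 ± 0.33 at Krt10 (adjusted p = 0.00725). Krt10 had one of the lower starting levels, with 42.1 and 22.9 CPM in NPC, against 74.6 and 67.9 CPM in ESC. Krt17, made in skin appendages and injured epidermis, had 37.7 and 32.5 CPM in NPC, against 105.6 and 89.6 CPM in ESC (-1.28 ± 0.39, adjusted p = 0.00436). The IgG level of Krt17 in ESC was 117.3 CPM, above both of its H3K27me3 values there. Neither Krt10 nor Krt17 was called above IgG in ESC, so their decreases do not start from a called level.

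By class, 11 of 11 type II and 12 of 13 type I keratins of epidermis and other epithelia fell (median log2 changes -1.99 and -1.48). The inner root sheath keratins, which line the growing hair, fell at 4 of 4 type I and 4 of 4 type II genes, with a median of -2.17 for each class. The hair shaft keratins fell at 7 of 7 type I and 5 of 6 type II genes (-1.84 and -1.67), and Krt88, placed in no class, fell as well (-1.17 ± 0.36). Among the called genes Krt42 had the smallest change (-0.75 ± 0.33, adjusted p = 0.0473), with 39.9 and 29.3 CPM in NPC, against 65.2 and 66.4 CPM in ESC. Krt42 was not above IgG in ESC (log2 ratio -0.03). The most negative log2 changes were those of Krt24 (-2.59 ± 0.51, adjusted p = 9.26e-06), Krt72 (-2.37), Krt26 (-2.34), Krt23 (-2.33) and the corneal keratin Krt12 (-2.32 ± 0.67). Krt24 had 29.9 and 18.5 CPM in NPC, against 174 and 148 CPM in ESC. At the other end, Krt87 had 134 and 188 CPM in NPC, against 248.5 and 227 CPM in ESC (-0.29 ± 0.77, adjusted p = 0.774). Its level in NPC lay within the range of the family in ESC, and it and Krt222 (-0.60 ± 0.32, adjusted p = 0.111) were the 2 members outside the simple class that did not pass. By chromosome, 23 of 25 fell on chromosome 11 and 22 of 25 on chromosome 15.

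All 50 changes were below 0 with library totals, with TMM factors from background windows and without either ESC library, 49 were without NPC replicate 1, and 46 were with a minimum count of 30, where the keratin median was -1.19. The count of calls moved more: 11 keratins passed without ESC replicate 1 and 24 without ESC replicate 2, against 47 without NPC replicate 1 and 49 without NPC replicate 2. The median of all windows was -0.05 with library totals and -0.23 with background windows, and the keratin median -2.04 and -2.20.

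**Figure D2:**
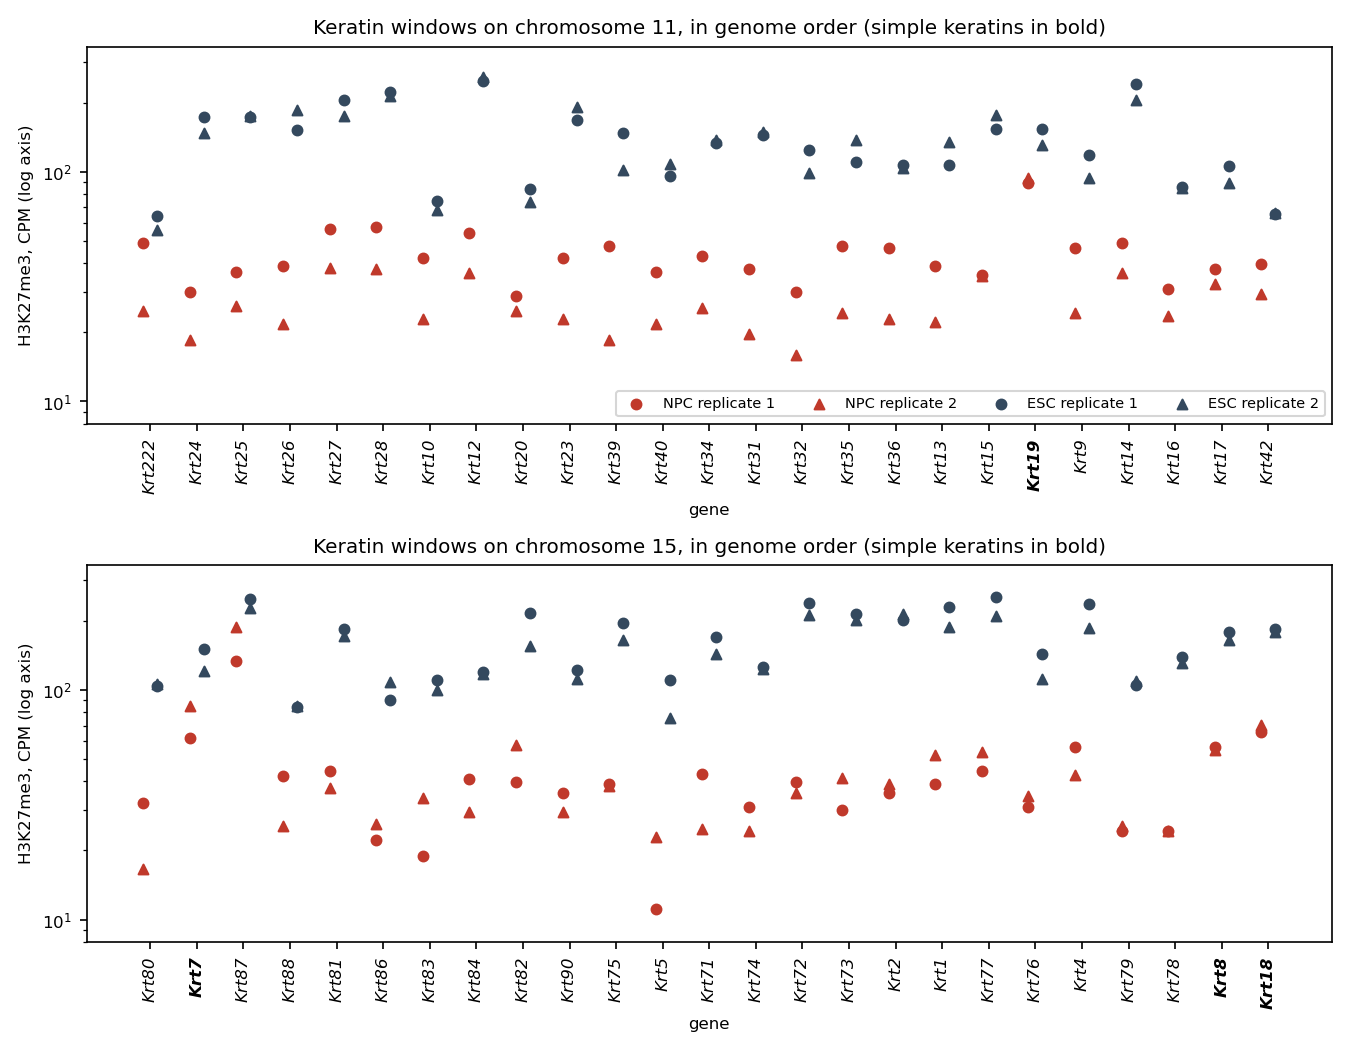
H3K27me3 in CPM (log axis) at the 50 keratins in genome order, for each NPC and ESC library. At every gene both NPC points lie below both ESC points, and Krt87 and then Krt19 are the highest in NPC.

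Other genes inside the clusters fell in H3K27me3 as well. Of 45 further windows between the outermost keratins, a set defined after the values were seen, 39 of the 44 tested fell and none rose (median log2 change -1.48), 33 of 38 windows on chromosome 11 and 6 of 7 on chromosome 15. These include 22 windows of keratin-associated proteins, the matrix proteins of the hair shaft. The 4 keratins left out by the rule also fell: Krt6b by 2.25, Krt6a by 1.73, Krt33b by 1.68 and Krt33a by 1.49 on the log2 scale. Of 72 genes within 500 kb outside the clusters, 6 fell and 36 rose (median 0.87), 2 and 21 of 37 beside the chromosome 11 cluster and 4 and 15 of 35 beside the chromosome 15 cluster. Among these 4 is Mir1941, whose start lies 0.8 kb from that of Krt80, so that most of its window is shared with the Krt80 window. The median log2 ratio over IgG of the 72 was 0.02 in NPC and -0.67 in ESC. Of the 72, 13 were above IgG in NPC and 13 in ESC, so most of these changes lay at low levels. Over all 54 keratin-associated proteins of the table, which include genes elsewhere, 33 of the 52 tested fell, none rose, and the median was -1.28 (23.5% of all windows fell and 22.9% rose). Above IgG were 1 of the 54 in NPC and 17 in ESC (15.2% and 21.3% of all windows).

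**Figure D3:**
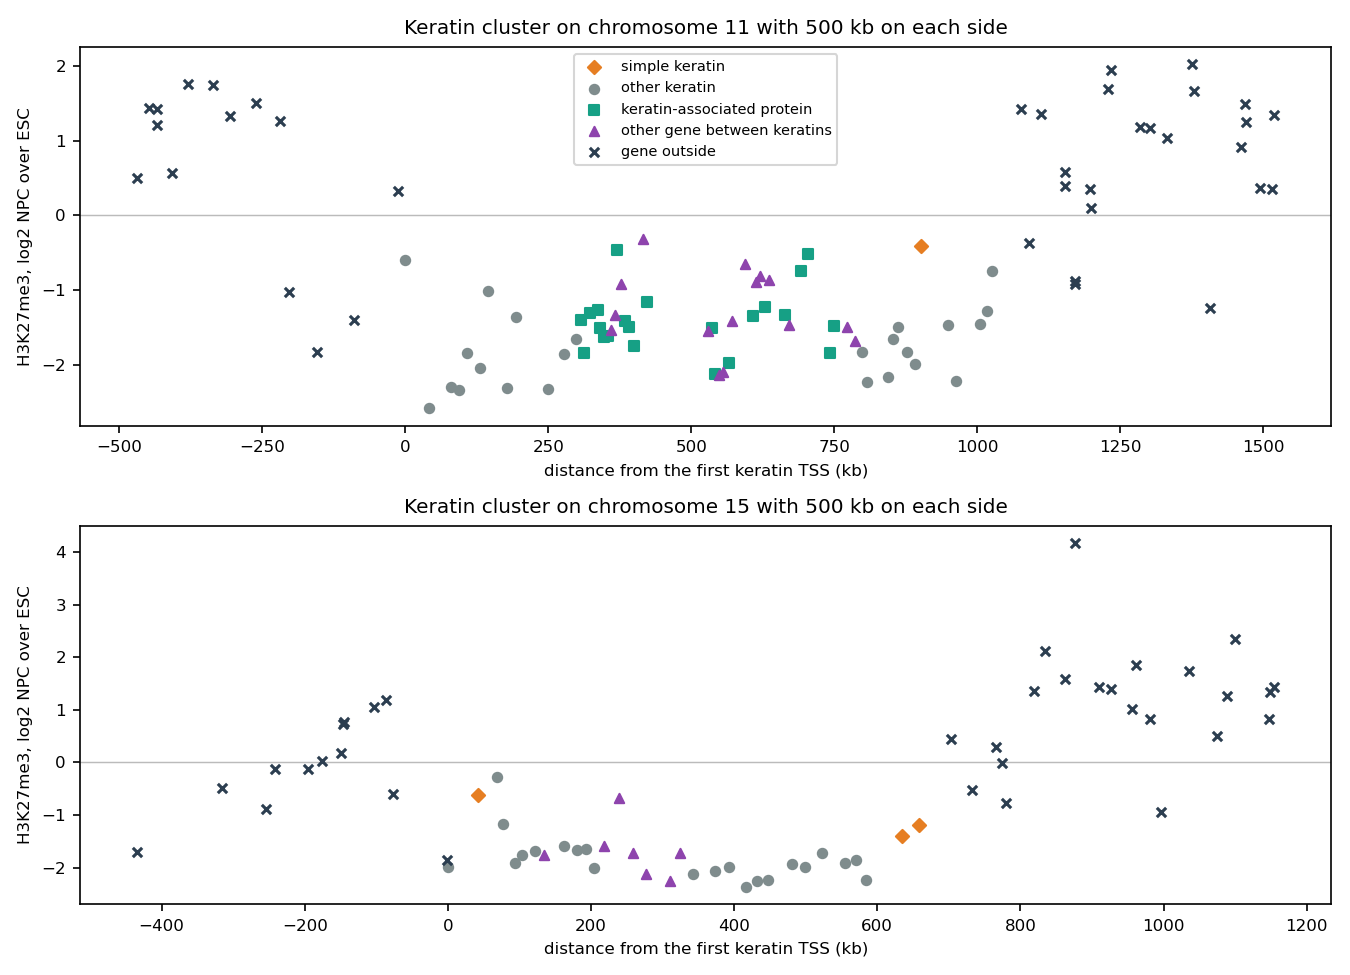
Log2 change of H3K27me3 in NPC over ESC against the distance in kb from the first keratin start site of each cluster, with 500 kb on each side; each point is 1 window. All keratins and the tested windows between them lie below 0, while beyond the clusters 36 of 72 genes rose and 6 fell.

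H3K4me3 was low at keratins in both cell types. It was above IgG at none of the 50 in NPC and none in ESC, where 35.5% and 32.9% of all windows passed, and the median log2 ratio over IgG was -3.36 in NPC and -2.75 in ESC. Since CPM is a share of a library's counts, a library with its counts at strong promoters has low CPM elsewhere. The median simple keratin had 13.8 and 11.3 CPM in NPC, against 18.03 and 15.3 CPM in ESC. The median of the others had 4.44 and 2.14 CPM in NPC, against 4.90 and 4.83 CPM in ESC, and that of all windows 23.9 and 23.1 CPM in NPC and 26.3 and 24.3 CPM in ESC. The simple keratins ranked at a median of the 43.7th percentile of all windows in NPC and the 43.8th in ESC, and the others at the 30.8th in NPC and the 30.9th in ESC.

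Of the 49 keratins with enough counts to test (Krt76 had too few), 14 fell in H3K4me3 and none rose, where 29.2% of all windows fell and 26.7% rose, so the share lower is near the background. The median change of the 49 was -0.67, against -0.02 over all windows. It was -0.91 without NPC replicate 1 and -0.12 without NPC replicate 2, where 28 of 50 keratins were below 0. Both NPC libraries lay below both ESC libraries at 23 keratins and above them at 4 (31.2% and 35.6% of all windows). Krt42, a type I keratin next to Krt17, had 3.98 and 4.04 CPM in NPC, against 26.4 and 22.9 CPM in ESC (-2.64 ± 0.23, adjusted p = 1.23e-28). Krt17 had 7.97 and 4.75 CPM in NPC, against 23.4 and 22.6 CPM in ESC (-2.03 ± 0.22, adjusted p = 4.40e-19). These neighbours and Krt7 had the smallest adjusted p of the 49, with no overlap between the cell types. Krt7 had 5.51 and 3.798 CPM in NPC, against 21.0 and 14.9 CPM in ESC (-2.11 ± 0.26, adjusted p = 4.27e-15). Krt8 had 14.4 and 12.0 CPM in NPC, against 18.03 and 16.6 CPM in ESC (-0.47 ± 0.19, adjusted p = 0.0299), and Krt18 had 13.2 and 10.6 CPM in NPC, against 16.3 and 15.7 CPM in ESC (-0.51 ± 0.21, adjusted p = 0.0255).

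The simple class was mixed: Krt7, Krt8 and Krt18 fell, while Krt19 had 17.2 and 15.3 CPM in NPC and 18.03 and 11.05 CPM in ESC, overlapping values (0.04 ± 0.19, adjusted p = 0.886). Outside it, 11 of the 45 tested fell. They were Krt17 and Krt42, Krt79 (-2.05), Krt4 of mucosal epithelium (-1.66), Krt75 (-1.44), Krt2 of the upper epidermis (-1.40), the inner root sheath keratins Krt28 and Krt71 (-1.23 and -1.21), Krt20 of gut epithelium (-1.23), the hair keratin Krt81 (-1.17) and Krt14 (-1.06). Krt10 had 17.2 and 15.8 CPM in NPC, against 15.8 and 13.8 CPM in ESC, and did not pass. None of the 7 type I hair keratins passed (median 0.44). The calls at Krt8 and Krt18 were lost with TMM factors from background windows, in DESeq2, in 1 fit over all libraries, without NPC replicate 2 and without ESC replicate 1, and the count of keratins that fell was 7 in DESeq2 and between 3 (without ESC replicate 1) and 26 (without NPC replicate 1) when 1 library was left out.

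**Figure D4:**
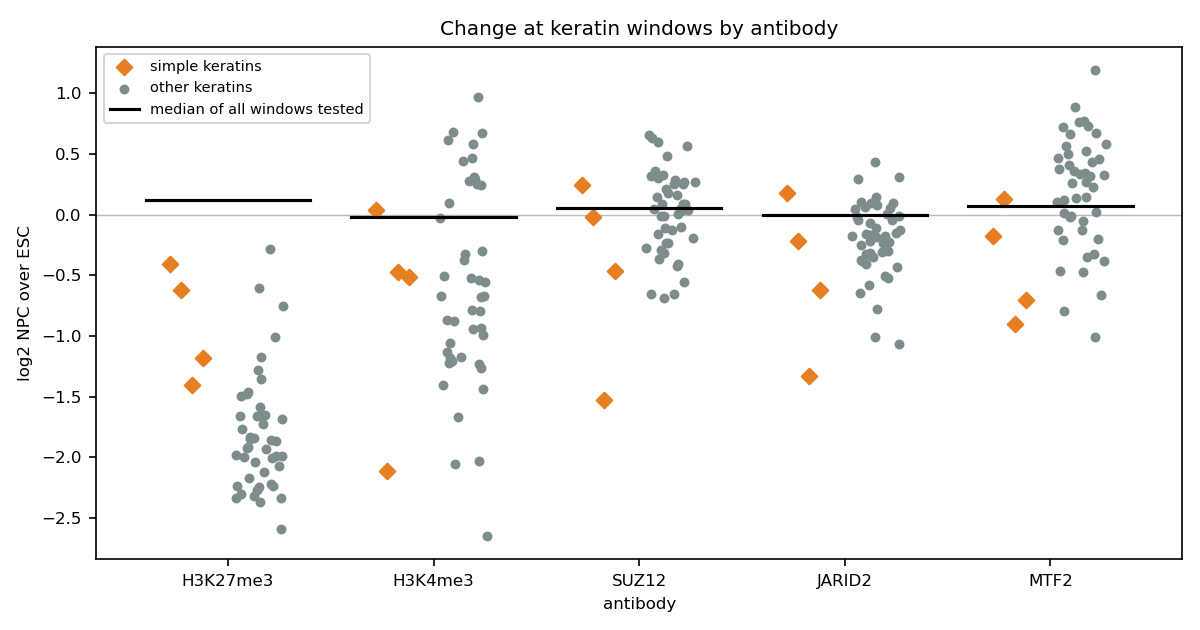
Log2 change in NPC over ESC (vertical axis) for each antibody, simple keratins left of the others; each point is 1 gene and the black line is the median of all windows tested. For H3K27me3 all points lie below that line, and for SUZ12, JARID2 and MTF2 most lie near it, with Krt8 the lowest point in SUZ12 and JARID2.

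None of the 3 PRC2 subunits was above IgG at any keratin in either cell type. The same rule called 0% of all windows for SUZ12, JARID2 and MTF2 in NPC, and in ESC 3.64% for SUZ12, 0% for JARID2 and 7.34% for MTF2. Where the rule passed no window, it could not tell keratins from other windows. The subunits' levels are therefore compared between cell types without a level above control. Krt8 came nearest in ESC, with a log2 ratio over IgG of 1.30 ± 0.44 for SUZ12 (adjusted p = 0.0905) and 1.00 ± 0.45 for MTF2 (adjusted p = 0.169).

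For SUZ12, Krt8 was the 1 keratin of 50 that fell, and none rose (11.6% of all windows fell and 1.87% rose). Krt8 had 49.4 and 40.1 CPM in NPC, against 115.4 and 92.5 CPM in ESC (-1.52 ± 0.28, adjusted p = 2.08e-06, with the NPC pair summed as 1 sample). With the NPC libraries kept apart it was -1.49 (adjusted p = 1.89e-07). The NPC libraries did not overlap the ESC libraries, and the IgG level of Krt8 was 61.4 CPM in NPC and 57.0 CPM in ESC. Leaving out ESC replicate 1 left 1 SUZ12 sample in each cell type, with no SUZ12 spread of its own. In a fit over the libraries of all antibodies, the change at Krt8 was then -1.22. Krt18 had 47.2 and 55.7 CPM in NPC and 45.5 and 77.7 CPM in ESC, Krt7 66.5 and 64.6 CPM in NPC and 45.5 and 68.5 CPM in ESC, and Krt19 75.1 and 82.5 CPM in NPC and 49.0 and 62.9 CPM in ESC. At Krt18 and Krt7 the cell types overlapped. Over the family, both NPC libraries lay below both ESC libraries at 4 keratins and above them at 18 (16% and 42.4% of all windows), and the median change of the 50 was 0.04, against 0.05 over all windows. With the NPC libraries kept apart, Krt14 also passed, with 85.9 and 95.8 CPM in NPC, against 44.3 and 51.8 CPM in ESC (0.68 ± 0.25, adjusted p = 0.0376; 2.97% of all windows rose and 13.1% fell in that fit).

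JARID2 had 1 summed library in each cell type, so the summed values carry no test. At least 2-fold lower in NPC were 3 keratins, Krt8 (-1.33), Krt80 (-1.06) and, just past that limit, Krt1, and none was 2-fold higher (1.47% and 0.708% of all windows). Both NPC libraries lay below both ESC libraries at 17 keratins and above them at 1 (17.9% and 19.8% of all windows), and the median change of the 50 was -0.18. Krt8 had 50.8 and 20.6 CPM in NPC, against 103 and 95.2 CPM in ESC, and without NPC replicate 2 its change was -0.94. In a test with the libraries kept apart, chosen after the data were seen, Krt8 (-1.39 ± 0.30, adjusted p = 0.00204) and Krt80 (-1.11 ± 0.30, adjusted p = 0.0404) fell and none rose (0.75% and 0.0792% of all windows). The call at Krt8 was lost in 1 fit over all libraries (-1.41, adjusted p = 0.977) and without NPC replicate 2 (-0.98, adjusted p = 0.237), and DESeq2 gave no adjusted p to Krt8 or Krt80. Krt80, the first gene of the chromosome 15 cluster, had 50.8 and 26.5 CPM in NPC, against 100.6 and 73.8 CPM in ESC. Its window overlaps that of another gene.

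For MTF2, 1 keratin rose and 1 fell (3.28% and 8.89% of all windows), and both are hair keratins of the chromosome 15 cluster. Krt84 had 66.0 and 46.4 CPM in NPC, against 19.2 and 20.9 CPM in ESC (1.19 ± 0.35, adjusted p = 0.0147). Krt87 had 31.9 and 44.5 CPM in NPC, against 64.9 and 62.7 CPM in ESC (-1.01 ± 0.32, adjusted p = 0.0241). Neither gene's groups overlapped, and DESeq2 gave no adjusted p to either, as at 47 of the 50 keratins for MTF2. At Krt8 the MTF2 level was 56.9 and 48.4 CPM in NPC, against 91.3 and 66.8 CPM in ESC (-0.90 ± 0.34, adjusted p = 0.061), which passed with TMM factors from background windows (adjusted p = 0.0296), in 1 fit over all libraries (0.0428) and without ESC replicate 2 (0.024), and was 0.01 with a minimum count of 30 (adjusted p = 0.983). Krt18 had -0.70 ± 0.32 (adjusted p = 0.127) and passed with the factors from background windows (adjusted p = 0.0471). Both NPC libraries lay below both ESC libraries at 4 keratins and above them at 25 (16.3% and 43.6% of all windows), and the median change of the 50 was 0.18, against 0.07 over all windows.

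**Figure D5:**
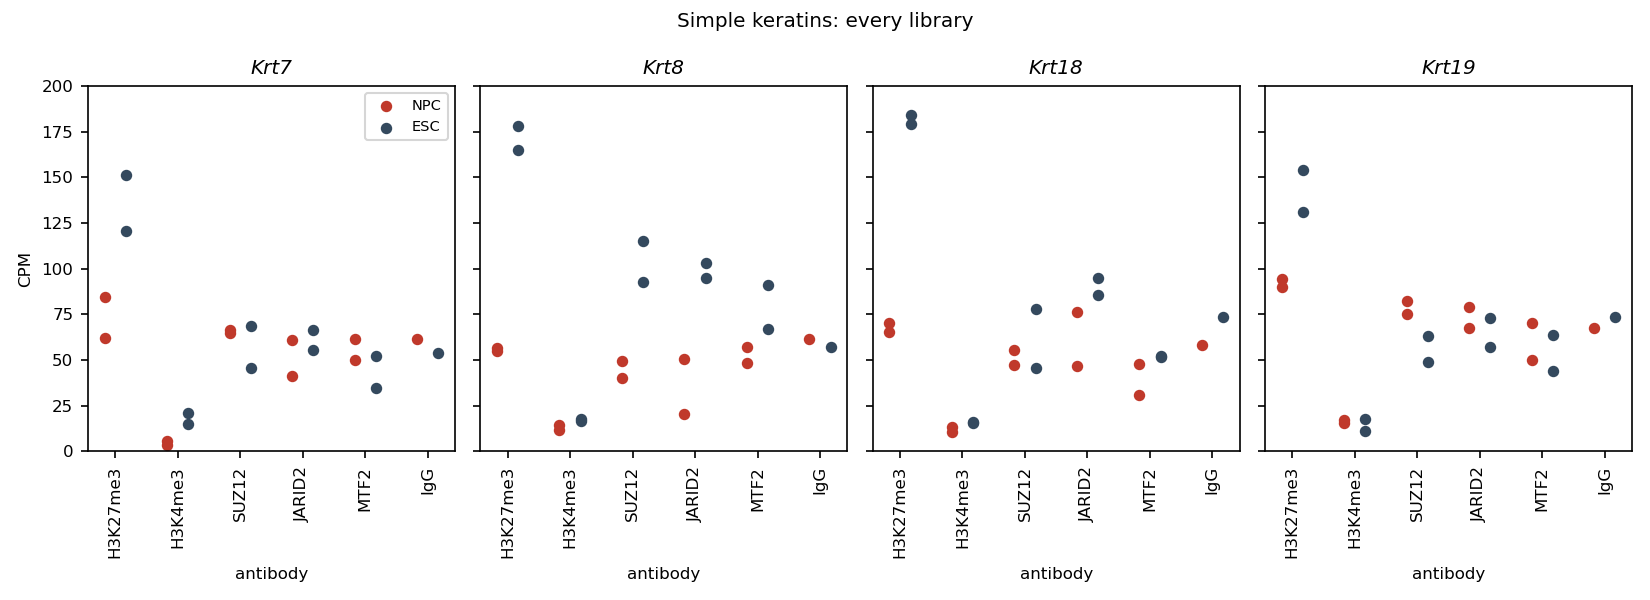
Level in CPM of every library at the 4 simple keratins, by antibody, NPC left of ESC. Krt8 is lower in both NPC libraries for H3K27me3, H3K4me3, SUZ12, JARID2 and MTF2, while Krt19 differs most in H3K27me3.

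Other intermediate filament genes and genes of epithelial cells are given beside the shares of all windows, which for H3K27me3 were 22.9% that rose and 23.5% that fell, and for H3K4me3 26.7% that rose and 29.2% that fell. Of 16 intermediate filament genes outside the family, H3K27me3 fell at 1 and rose at 5 (median 0.53), a smaller share that fell and a somewhat larger share that rose than the background. H3K4me3 fell at 8 and rose at 3 (median -0.34), with Bfsp1 of the lens (-1.26) and the neurofilament Nefh (-0.75) among those that fell. Nes, a neural progenitor filament, had 194 and 174 CPM of H3K4me3 in NPC, against 57.7 and 51.4 CPM in ESC (log2 change 1.70 ± 0.09). Vim, the filament of mesenchymal and progenitor cells, had 172.5 and 182.7 CPM in NPC, against 75.8 and 71.5 CPM in ESC. Both were well separated between the cell types, and Vim also rose in H3K27me3 (0.85 ± 0.34, adjusted p = 0.0332). Of 13 epithelial adhesion genes, H3K27me3 rose at 10 and fell at none (median 2.35), and H3K4me3 fell at 10 and rose at 2 (median -1.15). Cdh1, the adherens junction cadherin of epithelia and ESC, averaged 269 ± 55.3 CPM of H3K27me3 in NPC and 11.6 ± 3.24 CPM in ESC (SD, n = 2 each), with a change of -2.21 ± 0.10 in H3K4me3. Of 16 epithelial regulators, H3K27me3 rose at 7 and fell at 3 (median 1.58), with Klf5 at 3.24 and Esrp2 at 3.65 among those that rose, and H3K4me3 fell at 11 and rose at 1.

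Genes of the structures that keratin filaments join are set beside the same shares. Of 14 desmosome genes, H3K27me3 fell at 2 and rose at 2 (median 0.25), fewer each way than the background, with the cadherin Dsg2 at 3.45 ± 0.46 among those that rose and the plakophilin Pkp3 among those that fell at -1.08 ± 0.33. H3K4me3 fell at 7 of the 10 desmosome genes tested and rose at 2. Of 6 hemidesmosome genes, H3K27me3 fell at 1, Col17a1 (-1.36 ± 0.40), and rose at 3. The cornified envelope genes, made late in epidermal differentiation, fell at 6 of 13 in H3K27me3 (23.5% of all windows fell), among them Ivl (-1.56 ± 0.31) and Casp14 (-1.35 ± 0.31), none rose, and the median was -0.85.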

How the data were processed

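CUT&RUN was done with 5 antibodies and an IgG control in NPC and ESC, 22 libraries in all. Per the submitters' processing notes, reads were handled with Bowtie2 2.3.4.3 and Picard 2.19 on mm10; the deposited table holds raw counts per transcription start window, whole numbers with no normalization by the authors. How reads were counted and duplicates handled is not given in the sources used.

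Counts were tested with edgeR 4.0.16 (R 4.3.3): TMM factors, windows with a minimum count of 10 (filterByExpr), glmQLFit and glmQLFTest per antibody with the groups compared, and Benjamini-Hochberg adjustment over all windows tested. Ratios over IgG came from 1 fit of all libraries. A prior count of 2 entered only the folds of the summed JARID2 libraries and those between the IgG libraries. The tested folds used edgeR's default. The procedure was also run on simulated counts with the same spread in every group. The real H3K27me3 pairs differ in spread (chi-square for each degree of freedom 6.67 in NPC and 1.23 in ESC), so that run does not gauge the calls given here. Library pairs with a chi-square per degree of freedom below 1.05 were summed, a rule that left SUZ12 with 1 NPC sample and JARID2 with no test. Depth limits precision at windows of few counts. The p-values rest on the spread between at most 2 libraries of a group, moderated across windows. SUZ12 in NPC and IgG had 1 sample and gave no spread of their own. For SUZ12, leaving out an ESC library was done in the fit over all libraries. The column names of the counts end in b1 or b2, matching replicates 1 and 2 of the labels. Neither the labels nor the table named a batch beyond these tags.

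Genes named were the 4 simple keratins, every other keratin called in a comparison or above IgG on which a result turns, Krt1, Krt5, Krt10, Krt14 and Krt17, Vim and Nes, and called genes of smallest p in each list. Krt222, Krt76 and Mir1941 were named after their values were seen. The members and lists were chosen with earlier results of these data known. Alternatives were other scalings, no filter or a minimum count of 30, non-overlapping windows, DESeq2 1.42.0, 1 fit over all libraries, a replicate block and each library left out.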

Additional observations from a re-analysis of the deposited data

How the results depend on the processing

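Signs were followed gene by gene only at the simple keratins and at those called or, for summed JARID2, 2-fold changed. Other uncalled keratins are not listed here. For H3K27me3, 46 of 50 keratins were below 0 with a minimum count of 30 and 49 without NPC replicate 1. No called result changed sign. Changes that did not pass did so at Krt7 for SUZ12 (0.267 with library totals, 0.007 with a minimum count of 30, 0.013 with libraries kept apart, -0.234 to 0.136 with 1 library left out) and MTF2 (-0.07 with background-window factors, -0.105 to 0.269 with 1 library left out), at Krt8 for MTF2 (0.012 with a minimum count of 30), and at Krt19 for H3K4me3 (-0.035 without a filter, -0.259 to 0.488 with 1 library left out) and MTF2 (0.095 with library totals, 0.752 with a minimum count of 30, -0.491 to 0.25 with 1 library left out). With a minimum count of 30 the H3K27me3 change was 0 at Krt7 and 0.234 at Krt19. For H3K27me3 the 45 keratins that fell were 42 to 48 under other scalings, filters and DESeq2 and 46 with a crossed replicate block chosen after seeing the data; they were 11 to 49 when 1 library was left out. Among the simple keratins 0 to 4 passed. Same-numbered libraries did not deviate together (correlation of deviations -0.194 for H3K27me3, -0.043 for H3K4me3, -0.002 for SUZ12, 0.012 for JARID2 and -0.174 for MTF2), so the numbers were not taken as pairs. With the replicate block, 36 fell for H3K27me3, 14 for H3K4me3, 1 for SUZ12 (and 1 rose), 0 for MTF2 (and 1 rose) and 2 for JARID2; the block ended the call at Krt8 for H3K27me3 (adjusted p = 0.161). For H3K4me3, 7 fell in DESeq2, and 3 to 26 fell and 0 to 2 rose when 1 library was left out. For SUZ12, 3 rose with library totals and 1 with the libraries kept apart, 2 fell with background-window factors, and 0 to 1 rose and 0 to 1 fell with 1 library left out. For MTF2, 7 rose and 0 fell with library totals, 4 rose and 0 fell with a minimum count of 30, 0 rose and 0 fell in DESeq2, 0 rose in 1 fit over all libraries, 4 fell with background-window factors, 2 rose and 2 fell with a crossed replicate block, and 0 to 1 rose and 0 to 3 fell with 1 library left out. For JARID2, 1 summed keratin was lower on non-overlapping windows and 0 to 3 with 1 library left out; with libraries kept apart, 1 fell with library totals, a minimum count of 30 or non-overlapping windows, 0 in DESeq2 or 1 fit over all libraries, and 0 to 2 with 1 library left out. Above IgG for H3K27me3 in NPC were 1 keratin at a log2 ratio of 2, 1 with library totals and 1 to 8 with 1 library left out; in ESC, 21 at a log2 ratio of 2. With both IgG libraries as 1 control, 2 keratins passed for SUZ12 and 1 for MTF2 in ESC. DESeq2 gave no adjusted p at 6 keratins for H3K4me3, 47 each for SUZ12 and MTF2 and 34 for JARID2. The causes were not tested. Low counts limit H3K4me3 at keratins, and 1 IgG library per cell type limits every ratio over IgG.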

Other observations

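Across the 34 keratins with a promoter sequence, the ratio of observed to expected CpGs went with the H3K27me3 level (Pearson's r = 0.517 and Spearman's rho = 0.368 in NPC, 0.485 and 0.536 in ESC) and less with H3K4me3 (r = 0.038 and rho = 0.067 in NPC, 0.169 and 0.258 in ESC). For SUZ12 the values were -0.064 and -0.192 in NPC and 0.252 and 0.331 in ESC, for MTF2 -0.045 and -0.022 in NPC and 0.275 and 0.237 in ESC, and for JARID2 -0.122 and -0.089 in NPC and -0.02 and 0.011 in ESC. These are descriptions across genes that share libraries and lie in 2 clusters, and they carry no test. No keratin was above IgG for a PRC2 subunit, by a rule that passed no window for any subunit in NPC or for JARID2 in ESC. The family's median ranked above the median window for every subunit. For JARID2 the median simple keratin lay at the 83.2nd percentile of all windows in NPC and the 96.0th in ESC, and the median of the others at the 83.3rd in NPC and the 90.8th in ESC. For SUZ12 the median simple keratin lay at the 86.6th in NPC and the 86.4th in ESC and that of the others at the 77.3rd in NPC and the 71.3rd in ESC, and for MTF2 they lay at the 84.2nd in NPC and the 81.0th in ESC, and at the 68.2nd in NPC and the 60.0th in ESC. The IgG libraries were higher at keratins as well, and the median log2 ratio of the family over IgG was 0.02 in NPC and 0.04 in ESC for JARID2, -0.04 in NPC and -0.13 in ESC for SUZ12, and -0.16 in NPC and -0.40 in ESC for MTF2.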
